A study of Mus musculus with 14 samples.

Results

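The last step of fat cell maturation, the change from 96 to 192 h of differentiation, was read from 4 of the 14 microarrays of a study of 3T3-L1 cells. The 4 arrays are 1 array at 192 h and 1 at 96 h for cells carrying the SETD5 virus, and the same for cells carrying the empty virus, and every array at these hours was taken. 3T3-L1 is a mouse fibroblast line whose cells (preadipocytes) turn into fat cells under hormones. Its cells had been stably transduced with a retrovirus that makes V5-tagged SETD5, a SET domain protein, from a weak viral promoter, or with the same virus without an insert. In both arms the cells had been given insulin, dexamethasone and isobutylmethylxanthine (the MDI mixture) for the first 48 h and insulin alone afterwards, with fresh medium every 2 days. The cells at 192 h and at 96 h therefore shared the mixture and differed in how long they had then been in insulin. Each virus and hour had 1 array, and no replicate culture was analysed here. The statistics below therefore measure how the difference between the viruses varied over the 7 hours of the series, not the spread between cultures of 1 hour.

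A preadipocyte becomes a fat cell in stages. The hormones of the mixture act first: dexamethasone is a ligand of the glucocorticoid receptor, and isobutylmethylxanthine raises cyclic AMP by blocking phosphodiesterases. The early factors C/EBPβ and C/EBPδ and a few rounds of division come next, then PPARγ and C/EBPα, which switch on the genes for lipid storage. The cells then round up, lose their stress fibres, fill with fat droplets and begin to secrete hormones such as adiponectin. What follows describes which genes still changed after 96 h. The fat cell genes had by then reached lower levels with SETD5 than with the empty virus, as the values below show.

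The arrays measured probe sets, and a gene was read from the probe set with the highest mean over the 14 arrays. A gene was tested if its intensity, on a scale on which the trimmed mean of every array is 100, was 50 or more on 3 arrays, and 8682 genes were. The step of a gene is the mean over both arms of log2(intensity + 16) at 192 h minus that at 96 h, and folds are on this scale, which understates the change of dim genes. A gene was called higher or lower ("rose", "fell") at an adjusted p under 0.05 (limma, Benjamini-Hochberg over all genes tested).

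Both hours showed fat cell genes and fibroblast genes side by side. Adiponectin (Adipoq), the fat cell hormone, had 5261 with SETD5 and 7276 with the empty virus at 192 h, and 1979.5 and 5251 at 96 h. Fabp4 had 6297 and 9162 at 192 h, and 3628 and 7526 at 96 h. The fat cell genes Cidec, Retn, Lipe, Pparg and Cebpa differed more between the viruses at both hours. Cidec had 499 and 4115 at 192 h, and 165 and 1663.5 at 96 h. Lipe had 86.4 and 557 at 192 h, and 42.8 and 183.5 at 96 h. The fibrillar collagen gene Col3a1 had 7490.1 and 6890.0 at 192 h, and 6230.4 and 6295 at 96 h. Of the markers of other cells, none of 14 for macrophages and leukocytes, 10 for endothelial cells, 12 for skeletal muscle and 10 for bone and cartilage reached the filter for testing, and 12, 9, 11 and 10 of them were under 50 on all 4 arrays. The exceptions were the leukocyte genes Cd14 and Lyz1, the endothelial gene Mcam and the muscle gene Des, with highest values of 55.6, 83.9, 140.6 and 50.6. Their summed levels with SETD5 and with the empty virus were 273 and 157 at 192 h against 177 and 120.0 at 96 h for leukocytes, 62.4 and 205 against 58.6 and 115 for endothelial cells, 101 and 127 against 64.8 and 75.8 for muscle, and 78.3 and 60.0 against 66.8 and 64.8 for bone. As a sign of RNA quality, the ratio of the 3′ to the 5′ probe set was 0.838 and 0.820 at 192 h and 0.880 and 0.853 at 96 h for Gapdh, and 1.64 and 1.72 at 192 h and 2.02 and 2.10 at 96 h for Actb. The part of these shifts in the results was not tested. Fewer cells of a type and less RNA per cell cannot be told apart in such bulk samples.

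The Setd5 gene itself checks the labels poorly. Of its 3 probe sets, the brightest had 321 with SETD5 and 286 with the empty virus at 192 h, and 350.1 and 356 at 96 h, and of the other two probe sets 1 had 144 and 90.4 at 192 h and 112 and 99.1 at 96 h, and 1 had 31.5 and 34.4 at 192 h and 59.7 and 46.2 at 96 h. No probe set separated the viruses clearly. It is not known here whether any of them reads the viral RNA, so the virus of each array rests on its label.

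Between 96 and 192 h 225 of the 8682 genes rose (2.59%) and 417 fell (4.8%). Of these, 78 rose over 2-fold and 15 over 4-fold, and 130 fell over 2-fold and 20 over 4-fold. The called steps ranged in size between 0.38 and 5.92, and the median step over all genes was 0.00. All 225 and all 417 had the same sign in both arms. The test fixes this, since a difference between the arms widens the spread, so it is no separate sign of agreement. Over genes, the step with SETD5 and the step with the empty virus correlated at a Pearson's r of 0.645 and a Spearman's rho of 0.493 (8682 genes, not independent of each other, 2 arrays in each arm). Without a test, 111 genes were over 2-fold higher and 99 over 2-fold lower with SETD5, and 238 were higher and 251 lower with the empty virus. Of these, 71 (0.818%) and 69 (0.795%) passed that size in both arms and no gene passed it in opposite directions. The counts of called genes depended on single arrays: leaving out the SETD5 array at 192 h gave 767 higher and 1014 lower, the empty virus array at 192 h 308 and 306, the SETD5 array at 96 h 105 and 213, and the empty virus array at 96 h 53 and 129.

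**Figure D1:**
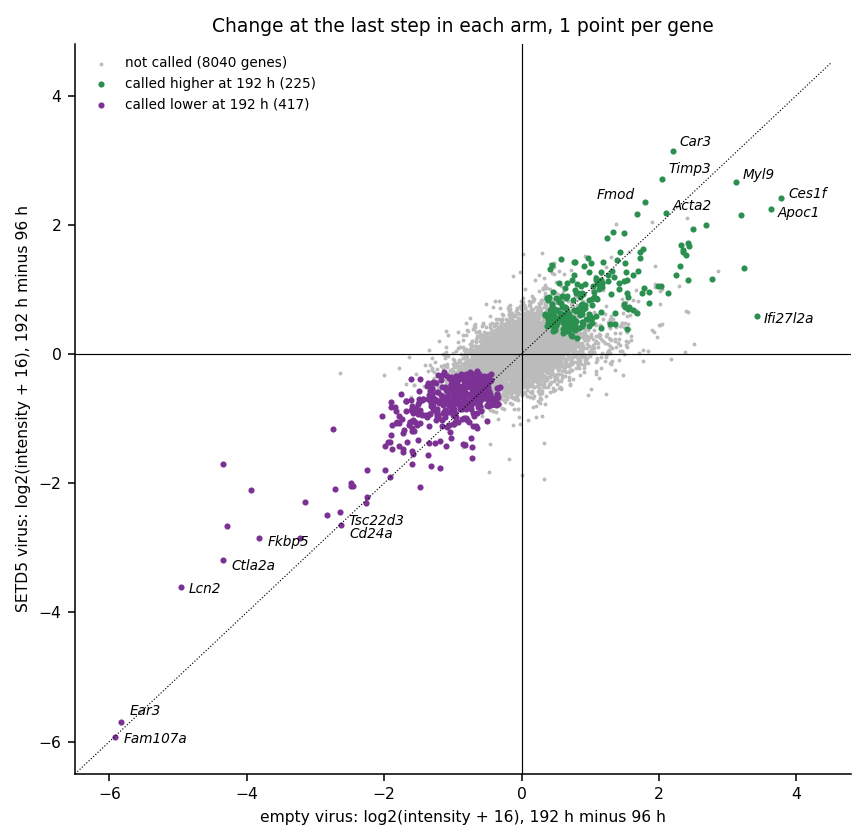
The change between 96 and 192 h in each arm, 1 point per gene (8682 genes). The vertical axis is log2(intensity + 16) at 192 h minus 96 h with the SETD5 virus, the horizontal axis the same with the empty virus, and the dotted line marks equal changes. The 225 genes called higher lie at the upper right and the 417 called lower at the lower left, since the test calls no others. Fam107a and Ear3 lie near -6 in both arms.

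Many of the genes that moved last had moved the other way in the mixture. By 48 h against 0 h, 251 genes were over 2-fold higher in both arms (2.89% of those tested) and 336 over 2-fold lower (3.87%). The arrays of these hours do not enter the step itself, but they enter the spread behind the calls, so the comparison is not independent of them. Of the 417 genes that fell at the last step, 107 (25.7%) had been over 2-fold higher at 48 h and 11 (2.64%) were over 2-fold lower. Those 107 make up 42.6% of all genes that were over 2-fold higher at 48 h. Of the 225 genes that rose at the last step, 83 (36.9%) had been over 2-fold lower at 48 h and 5 (2.22%) over 2-fold higher. The 83 are 24.7% of all that were lower at 48 h.

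Most of the distance from 0 h was still there at 96 h and gone at 192 h. Relative to 0 h, the 107 genes had a median of 1.60 with SETD5 and 1.72 with the empty virus at 48 h, of 1.28 and 1.38 at 96 h, and of 0.14 and 0.10 at 192 h. The 83 genes had a median of -1.77 and -2.03 at 48 h, -1.03 and -1.31 at 96 h, and 0.10 and -0.30 at 192 h. Since these sets were picked by their values at 0, 48, 96 and 192 h, the medians describe the course and test nothing. A smaller group went beyond every earlier hour. In both arms 59 genes (0.68% of those tested) were over 1.5-fold above their highest earlier value at 192 h, 31 of them among the genes that rose, and 63 (0.726%) were over 1.5-fold below their lowest earlier value, all 63 of them among the genes that fell.

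**Figure D2:**
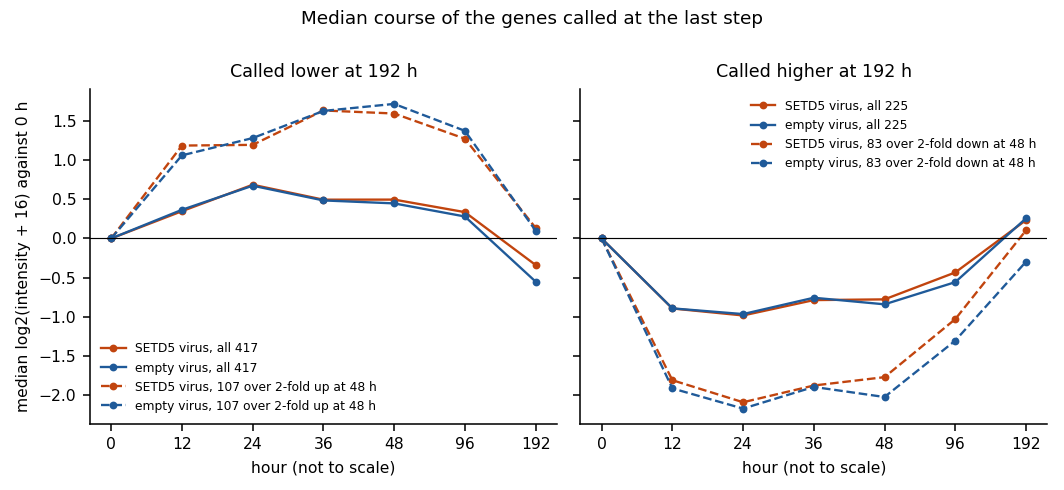
Median course of the genes called at the last step, as log2(intensity + 16) against 0 h, by hour, for the SETD5 virus (orange) and the empty virus (blue). The left panel has the 417 genes that fell (solid) and the 107 of them over 2-fold up at 48 h (dashed), which lie above 1.2 at 96 h and near 0.1 at 192 h. The right panel has the 225 that rose and the 83 of them over 2-fold down at 48 h, which were below -1.0 at 96 h.

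Glucocorticoid and cyclic AMP response genes fell together. Of 29 such genes tested 13 fell (44.8%, against 4.8% of all genes) and none rose, and the median step of the list was -0.63 (-0.65 with SETD5 and -0.61 with the empty virus). Fkbp5, a cochaperone of the glucocorticoid receptor, had 274 with SETD5 and 170 with the empty virus at 192 h, against 2071.5 and 2597 at 96 h. The levels at 192 h were close to those at 0 h, 199 and 237. The fall was 10.1-fold (log2 step -3.33, SE 0.21, adjusted p = 2.44e-05). Tsc22d3 (GILZ), a glucocorticoid-induced leucine zipper protein that blocks inflammatory signals, had 501 and 387 at 192 h, against 2791 and 2509 at 96 h, a fall of 5.83-fold (step -2.54, SE 0.14, adjusted p = 8.07e-06). Of its 2 other probe sets 1 fell (step -3.13) and 1 was not called (step -0.61, adjusted p = 0.162). Ddit4, an inhibitor of mTORC1, had 169 and 134 at 192 h, against 890 and 1312 at 96 h (step -2.72, SE 0.21, adjusted p = 6.24e-05). It ended below its 0 h values of 316 and 301. Errfi1, an inhibitor of EGF receptor signalling, had 480 and 623 at 192 h, against 2426 and 3044 at 96 h (step -2.28, SE 0.15, adjusted p = 3.05e-05).

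The remaining members that fell had smaller steps. Pdk4, the kinase that shuts pyruvate dehydrogenase, had 100.5 with SETD5 and 72.4 with the empty virus at 192 h, against 464 and 470.0 at 96 h (step -2.25, SE 0.21, adjusted p = 0.000244). The metallothionein gene Mt2 and the phosphatase gene Dusp1 had steps of -1.44 and -1.10 (adjusted p = 0.00123 and 0.00186), and the kinase gene Sgk1 one of -0.91 (adjusted p = 0.00731). The call of Sgk1 was lost without the SETD5 array at 96 h (adjusted p = 0.0639). Leaving out any 1 of the 4 arrays left between 9 and 16 of the 29 genes called lower, and 3 were called higher when the SETD5 array at 192 h was the one left out. Nr3c1 and Hsd11b1 were picked after their values were seen. Nr3c1, the glucocorticoid receptor itself, had a step of 0.14 that was not called (adjusted p = 0.62). Hsd11b1, the enzyme that regenerates active glucocorticoid in fat cells, had the highest step of the list, 1.26, which was not called either (adjusted p = 0.19).

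The steepest falls were outside that list. Fam107a, an actin-binding protein induced by stress in the brain, had 13.4 with SETD5 and 24.0 with the empty virus at 192 h, against 1769.7 and 2398.5 at 96 h, the highest level of its whole course. At 0 h it had been at 1.2 and 4.6. Its fall was 60.6-fold (step -5.92, SE 0.41, adjusted p = 4.11e-05). Ear3, a secreted ribonuclease of the eosinophil-associated family, had 18.8 and 41.5 at 192 h, against 1789.7 and 3251 at 96 h, a fall of 54.3-fold (step -5.76, SE 0.18, adjusted p = 1.47e-07). Ang3, a ribonuclease of the related angiogenin group, had 4.8 and 0.4 at 192 h, against 51.9 and 318 at 96 h (step -3.03, SE 0.48, adjusted p = 0.00504). Both belong to families of near-identical genes, so their probe sets may also read relatives. Map7d2, a microtubule-binding protein, had 4.3 and 9.5 at 192 h, against 112 and 481 at 96 h (step -3.47, SE 0.42, adjusted p = 0.00122). Ctla2a, a protein related to the propeptide of cathepsins, had 92.1 and 47.0 at 192 h, against 974 and 1269.9 at 96 h (step -3.77, SE 0.34, adjusted p = 0.000192).

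**Figure D3:**
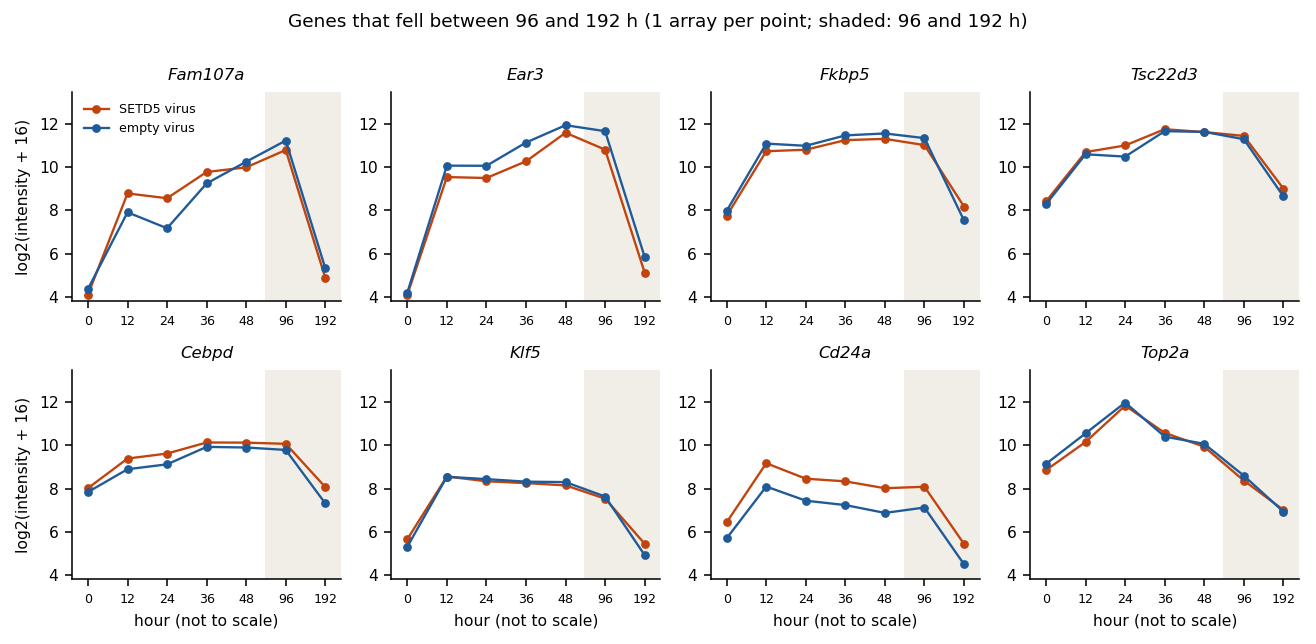
Levels of 8 genes that fell, as log2(intensity + 16) by hour, with the SETD5 virus (orange) and the empty virus (blue), 1 array per point and the hours 96 and 192 shaded. Fam107a had 1769.7 and 2398.5 at 96 h and 13.4 and 24.0 at 192 h. Top2a had left its peak of 24 h long before, whereas Fkbp5, Tsc22d3 and Cebpd stayed near their 48 h level until 96 h.

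Promoters of the tested genes were searched for the letters of several motifs. The glucocorticoid response element, the palindrome that the receptor dimer binds, was one of them. The windows, from RefSeq (GRCm38.p6), run from 250 bases before a start to 50 after it, and 7157 tested genes had at least 1. The letters GNACA and TGTNC with 3 bases between them, on either strand, were in the windows of 8 of 325 genes called lower (2.46%), of none of 175 called higher and of 25 of all 7157 (0.349%). The cyclic AMP response element, TGACGTCA, was in 10 of the 325 called lower (3.08%) and 3 of the 175 called higher (1.71%). Of all 7157 genes 264 held it (3.69%). Binding to either element was not tested. Fam107a and Sgk1 are shown as the steepest fall and as a classical target of the receptor. The match to the glucocorticoid response element is in capitals, at -120 and -188 from the start.
Fam107a, chr14:8309728-8310027, minus strand: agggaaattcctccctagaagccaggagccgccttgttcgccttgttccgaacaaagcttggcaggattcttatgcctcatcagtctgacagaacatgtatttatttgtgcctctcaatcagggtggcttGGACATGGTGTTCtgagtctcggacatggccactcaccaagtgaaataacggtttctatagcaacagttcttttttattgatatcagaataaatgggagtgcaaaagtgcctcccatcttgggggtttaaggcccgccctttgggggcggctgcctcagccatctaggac
Sgk1, chr10:21993640-21993939, plus strand: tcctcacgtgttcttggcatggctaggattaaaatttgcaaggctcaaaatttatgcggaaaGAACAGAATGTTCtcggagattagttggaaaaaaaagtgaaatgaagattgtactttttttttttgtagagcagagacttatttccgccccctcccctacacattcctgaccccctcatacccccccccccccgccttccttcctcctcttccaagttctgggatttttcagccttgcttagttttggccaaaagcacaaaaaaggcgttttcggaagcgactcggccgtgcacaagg

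The early adipogenic factors Cebpd and Klf5 fell, Pparg and Cebpa were not called, and the probe sets of Cebpb differed. Cebpd, the gene of C/EBPδ, had 252 with SETD5 and 143 with the empty virus at 192 h, against 1060.1 and 868.5 at 96 h, a fall of 4.73-fold (step -2.24, SE 0.15, adjusted p = 3.05e-05). Its 0 h values were 243 and 213, so that at 96 h it was still near its 48 h level of 1102 and 940.2. Klf5, a Krüppel-like factor of early adipogenesis, had 27.5 and 14.2 at 192 h, against 169 and 182 at 96 h (step -2.40, SE 0.17, adjusted p = 4.42e-05). Cebpb, the other early factor, had 1278 and 1888 at 192 h, against 1976 and 2405 at 96 h (step -0.48, adjusted p = 0.0683), and was called lower when the empty virus array at 192 h was left out (adjusted p = 0.0194). Its other probe set fell (step -0.70, adjusted p = 0.00479). Pparg had 274 and 1694.5 at 192 h, against 256 and 817 at 96 h (step 0.56, SE 0.46, adjusted p = 0.508). Cebpa had 60.6 and 230.3 at 192 h, against 38.7 and 144 at 96 h (step 0.55, SE 0.52, adjusted p = 0.58). In the list of 19 such factors, 2 rose (10.5%, against 2.59% of all genes) and 2 fell (10.5%, against 4.8%).

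Ppargc1a, a coactivator of nuclear receptors and of mitochondrial genes, was one of the 2 that rose. It had 133 with SETD5 and 119 with the empty virus at 192 h, against 40.1 and 31.6 at 96 h, a rise of 2.74-fold that held in every alternative (step 1.45, SE 0.15, adjusted p = 0.000443). Its level had been 62.4 and 56.6 at 0 h and 17.5 and 19.6 at 48 h. Klf15, a Krüppel-like factor of late fat cells, had 56.7 and 551 at 192 h, against 13.8 and 62.4 at 96 h, and was not called (step 2.07, SE 0.66, adjusted p = 0.0888). Without the SETD5 array at 192 h it was (adjusted p = 0.000481).

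Genes of cell division fell in both arms, from a level that was already low. Of 45 genes of mitosis and cytokinesis 25 fell (55.6%, against 4.8% of all genes) and none rose, and 42 of the 45 were lower in both arms, as were 33.1% of all genes. The median step was -0.83 (-0.62 with SETD5 and -1.11 with the empty virus). Against 0 h the list had a median of 2.04 with SETD5 and 1.85 with the empty virus at 24 h, of -0.93 and -0.84 at 96 h, and of -1.48 and -1.88 at 192 h. Top2a, the topoisomerase of dividing cells, had 113 and 106 at 192 h, against 315 and 371 at 96 h, a fall of 2.85-fold (step -1.51, SE 0.14, adjusted p = 0.000264). Cdc20, an activator of the anaphase-promoting complex, had 138 and 114 at 192 h, against 312 and 357 at 96 h (step -1.31, SE 0.17, adjusted p = 0.0015). The second probe set of each was not called (steps of -0.73 for Top2a and -0.62 for Cdc20, adjusted p = 0.0915 and 0.0947). Birc5 (survivin) and the spindle gene Nusap1 had steps of -1.47 and -1.25 (adjusted p = 0.0041 and 0.0101). Neither of these 2 calls held without the empty virus array at 96 h (adjusted p = 0.054 and 0.0955).

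Of 43 genes of DNA replication 12 fell (27.9%, against 4.8% of all genes) and none rose, with a median step of -0.47. Mcm5, a subunit of the replicative helicase, had 90.0 with SETD5 and 68.1 with the empty virus at 192 h, against 205 and 243 at 96 h (step -1.34, SE 0.20, adjusted p = 0.00331). Rrm2, Rrm1 and Mcm3 fell as well (steps of -1.36, -1.04 and -0.98, adjusted p = 0.019, 0.0119 and 0.0225), and these calls were lost without the empty virus array at 96 h (0.136, 0.0906 and 0.131) or the SETD5 array at 96 h (0.0731, 0.0686 and 0.106), those of Rrm2 and Mcm3 also without the empty virus array at 192 h (0.0758 and 0.0911). The 3 other probe sets of Mcm3 were not called (steps of -0.52, -0.32 and -0.68, adjusted p = 0.205, 0.531 and 0.181). The number of division genes called moved with single arrays. Without the SETD5 array at 192 h 38 of the 45 mitosis genes and 24 of the 43 replication genes fell, and without the empty virus array at 96 h 12 and 3 did. The replication genes that fell numbered 5 without the empty virus array at 192 h and 3 without the SETD5 array at 96 h.

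Promoters of mitosis genes are known for a CCAAT box and, near the start, the cell cycle homology element (CHR). The DREAM complex acts through the CHR. The letters TTTGAA, on either strand, were in the windows of 29 of 38 mitosis genes (76.3%) and of 991 of all 7157 genes with a window (13.8%), and the letters CCAAT in 30 of the 38 (78.9%) against 43.5%. Of 36 DNA replication genes 5 held TTTGAA (13.9%), near the share of all genes, and 23 held CCAAT (63.9%). CCAAT was more frequent still in the lists of the clock (100%), cholesterol synthesis (89.5%) and endoplasmic reticulum chaperones (81.0%). Top2a and Cdc20, described above, are shown with TTTGAA, or TTCAAA for its other strand, in capitals. The matches lie at -179 and -23 in Top2a and at -18 in Cdc20.
Top2a, chr11:99024140-99024439, minus strand: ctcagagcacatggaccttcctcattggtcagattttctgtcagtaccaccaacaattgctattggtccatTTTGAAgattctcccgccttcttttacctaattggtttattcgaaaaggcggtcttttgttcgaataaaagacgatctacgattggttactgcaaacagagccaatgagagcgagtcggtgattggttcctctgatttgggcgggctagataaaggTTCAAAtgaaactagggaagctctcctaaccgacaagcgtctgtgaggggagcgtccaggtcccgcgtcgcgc
Cdc20, chr4:118437294-118437593, minus strand: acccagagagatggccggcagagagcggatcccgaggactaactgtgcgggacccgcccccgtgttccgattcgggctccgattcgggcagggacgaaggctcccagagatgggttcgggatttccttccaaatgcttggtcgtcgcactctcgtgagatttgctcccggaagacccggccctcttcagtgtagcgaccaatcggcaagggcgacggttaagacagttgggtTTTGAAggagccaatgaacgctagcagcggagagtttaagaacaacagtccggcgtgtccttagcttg

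Single growth and cell cycle inhibitor genes fell beside them. Myc had 51.3 with SETD5 and 73.3 with the empty virus at 192 h, against 112 and 209 at 96 h (step -1.13, adjusted p = 0.0105, and 0.105 without the empty virus array at 96 h). Of 26 inhibitors of the cell cycle and p53 targets 4 fell (15.4%, against 4.8% of all genes), 1 rose and 21 were not called, and the median step was -0.09. Cdkn1a (p21), the inhibitor of cyclin-dependent kinases, had 287 and 258 at 192 h, against 579 and 696 at 96 h, a fall of 2.26-fold (step -1.18, SE 0.14, adjusted p = 0.000983). Trp53inp1 and Sesn1, both p53 targets, had steps of -1.28 and -0.97 (adjusted p = 0.00168 and 0.00186). The calls of these 3 held in every alternative. Foxo3, a forkhead factor that insulin keeps out of the nucleus, had 201 and 200.2 at 192 h, against 435.5 and 650.5 at 96 h (step -1.34, adjusted p = 0.00597, and 0.0557 without the empty virus array at 96 h). The insulin receptor substrate gene Irs1 rose, with 1311 and 1564 at 192 h, against 646 and 708 at 96 h (step 1.06, SE 0.14, adjusted p = 0.00201). It was at 798 and 683 at 0 h and at 352 and 354 at 48 h.

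Secreted and surface proteins that the mixture had raised were also among the falls. Lcn2 (lipocalin 2), a siderophore-binding acute phase protein, had 10.1 with SETD5 and 13.1 with the empty virus at 192 h, against 301 and 890 at 96 h, and had peaked at 1950.1 and 2357 at 24 h. The fall was 19.4-fold (step -4.28, SE 0.30, adjusted p = 4.18e-05). Cxcl13, a chemokine for B cells, had 41.3 and 26.7 at 192 h, against 230 and 636 at 96 h (step -3.02, SE 0.33, adjusted p = 0.000625). Retnla, a small protein of the resistin family, had 3.0 and 2.9 at 192 h, against 26.6 and 110.4 at 96 h (step -1.95, adjusted p = 0.00789). Lbp, which binds lipopolysaccharide, had 39.9 and 17.4 at 192 h, against 130 and 69.3 at 96 h (step -1.37, adjusted p = 0.0144), and its call was lost without the empty virus array at 96 h (0.124). Cd24a, a surface glycoprotein of fat progenitors, had 27.2 and 6.5 at 192 h, against 255 and 123 at 96 h, a fall of 6.23-fold (step -2.64, SE 0.12, adjusted p = 2.43e-06). At both hours it was higher with SETD5 than with the empty virus. Ifi204 and Ifi207, which are not of this kind but of the p200 family of DNA-binding proteins, fell too. Their steps were -2.66 and -3.04 (adjusted p = 2.43e-06 and 9.45e-05).

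The genes that rose included some of the contractile cytoskeleton. Their list as a whole returned towards its 0 h level with SETD5, but little with the empty virus. Of 30 genes of actin and its partners 10 rose (33.3%, against 2.59% of all genes) and none fell. The median step was 0.27 (0.43 with SETD5 and 0.16 with the empty virus). Against 0 h the list had a median of -0.52 with SETD5 and -0.77 with the empty virus at 96 h. At 192 h it had -0.05 and -0.67. Acta2, smooth muscle actin, had 3931 with SETD5 and 2365 with the empty virus at 192 h, against 855 and 537.5 at 96 h. Its 0 h values were 3856 and 3780.0, and its lowest were 245 and 95.8, at 48 h. The rise was 4.42-fold and held in every alternative (step 2.14, SE 0.25, adjusted p = 0.000909). Myl9, a light chain of non-muscle and smooth muscle myosin, had 857 and 404 at 192 h, against 122 and 32.2 at 96 h, a rise of 7.43-fold (step 2.89, SE 0.36, adjusted p = 0.00131). Tagln (SM22), an actin-bundling protein, had 115 and 39.6 at 192 h, against 19.2 and 6.0 at 96 h (step 1.61, SE 0.25, adjusted p = 0.00434). Tropomyosin 1 (Tpm1) had 1586 and 788 at 192 h, against 646 and 345 at 96 h (step 1.22, adjusted p = 0.00921). The calls of Tagln and Tpm1 were lost without the empty virus array at 96 h (0.0557 and 0.105), where 3 of the 30 genes remained called.

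Serum response factor (Srf), which drives such genes, rose too, with 195 with SETD5 and 123.5 with the empty virus at 192 h, against 96.6 and 60.3 at 96 h (step 0.89, adjusted p = 0.00961, and 0.107 without the empty virus array at 96 h). The CArG box, the site of this factor, was in the promoter windows of 7 of 27 genes of the list (25.9%), of 10 of 175 genes called higher (5.71%), of 5 of 325 called lower (1.54%) and of 111 of all 7157 (1.55%), on either strand. Myl9, the steepest rise of the list, is shown with its match in capitals, at -161.
Myl9, chr2:156775214-156775513, plus strand: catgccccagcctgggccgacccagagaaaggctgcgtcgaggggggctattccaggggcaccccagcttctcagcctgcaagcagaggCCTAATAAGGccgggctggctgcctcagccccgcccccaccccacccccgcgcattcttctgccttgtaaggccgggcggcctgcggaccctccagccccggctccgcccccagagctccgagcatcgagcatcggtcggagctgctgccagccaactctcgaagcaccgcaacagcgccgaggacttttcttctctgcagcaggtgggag

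**Figure D4:**
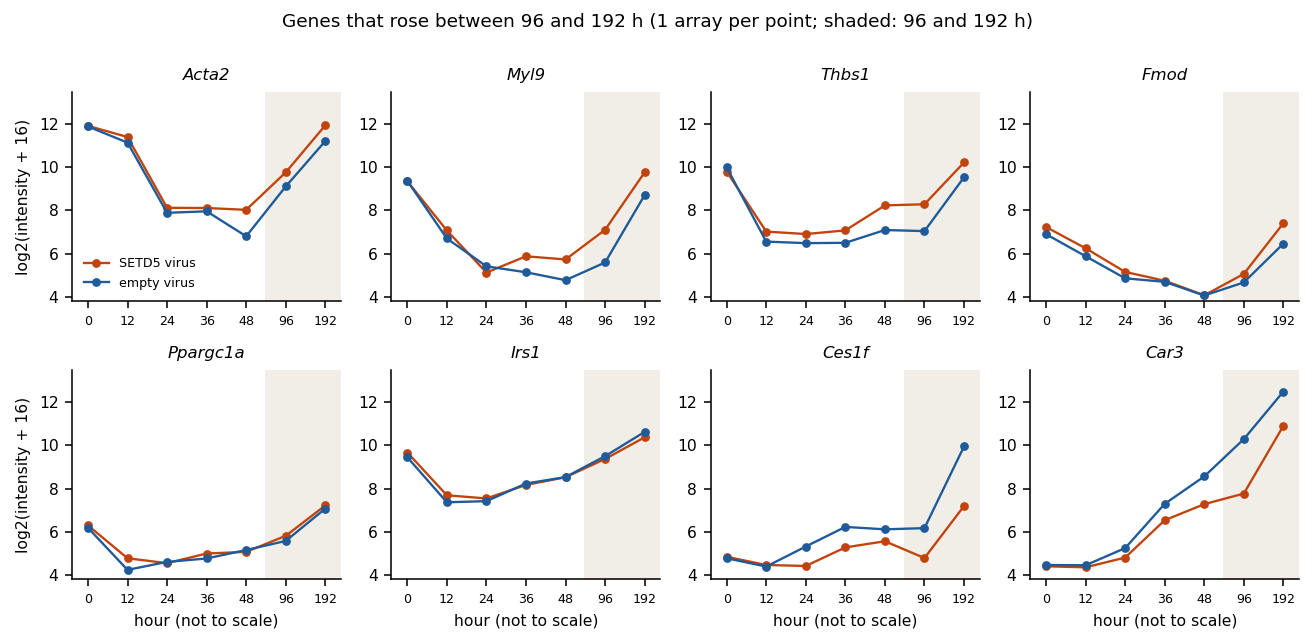
Levels of 8 genes that rose, as log2(intensity + 16) by hour, with the SETD5 virus (orange) and the empty virus (blue), 1 array per point and the hours 96 and 192 shaded. Acta2, Myl9, Thbs1 and Fmod went down after 0 h and were back near that level at 192 h, whereas Ces1f and Car3 were highest at 192 h, at 130.0 and 974 and at 1902 and 5751.

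Some matrix and preadipocyte genes rose as well, and their lists as a whole also differed between the arms. Of 30 matrix and matricellular proteins 4 rose (13.3%, against 2.59% of all genes) and 2 fell (6.67%, near the 4.8% of all genes). The median of that list against 0 h was 0.38 with SETD5 and -0.14 with the empty virus at 192 h, and -0.11 and -0.15 at 96 h. Thbs1 (thrombospondin 1) had 1180 with SETD5 and 726 with the empty virus at 192 h, against 296.5 and 116 at 96 h, a rise of 4.64-fold to about its 0 h level of 877 and 1005 (step 2.21, SE 0.28, adjusted p = 0.0014). Fibromodulin (Fmod), a collagen-binding proteoglycan, had 154 and 72.3 at 192 h, against 17.4 and 9.4 at 96 h (step 2.07, SE 0.19, adjusted p = 0.000244). Lumican (Lum), another of its family, had 798.5 and 2409 at 192 h, against 355 and 843 at 96 h (step 1.32, adjusted p = 0.0136). Its call was lost without the empty virus array at 192 h (0.0595), the SETD5 array at 96 h (0.0833) or the empty virus array at 96 h (0.0858). Timp3, an inhibitor of matrix proteases, had 314 and 174 at 192 h, against 34.8 and 30.3 at 96 h (step 2.37, SE 0.35, adjusted p = 0.00331), and 1 of its 2 other probe sets was not called (step 1.14, adjusted p = 0.0551). Ecm1 fell (step -1.38, adjusted p = 0.00614, and 0.0528 without the SETD5 array at 96 h).

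Of 29 collagens and enzymes that process them none rose and 4 fell (13.8%, against 4.8% of all genes), among them Col18a1 and the lysyl hydroxylase gene Plod1 (steps of -0.91 and -0.67, adjusted p = 0.0076 and 0.00853), neither of which was called without the empty virus array at 96 h (0.0883 and 0.0841). Of 27 preadipocyte and anti-adipogenic genes 7 rose (25.9%, against 2.59%) and 2 fell (7.41%, against 4.8%). Against 0 h the list had a median of -0.09 with SETD5 and -0.78 with the empty virus at 192 h, and of -0.44 and -0.57 at 96 h, so that it lay nearer to 0 h at 192 h with SETD5 and further from it with the empty virus. Dlk1 (Pref-1), the inhibitor of fat cell formation that preadipocytes carry, had 2773 with SETD5 and 1813 with the empty virus at 192 h, against 1123 and 719 at 96 h, a rise of 2.47-fold that held in every alternative (step 1.30, SE 0.17, adjusted p = 0.00172), while its other probe set was not called (step 0.59, adjusted p = 0.0554). Sfrp2, a modulator of Wnt signals, had 306 and 150 at 192 h, against 88.1 and 32.4 at 96 h (step 1.70, SE 0.19, adjusted p = 0.000738). Its call was lost in a limma fit without a term for the virus (adjusted p = 0.0526). Leaving out 1 array gave 4 and 8 of the 27 higher and lower without the SETD5 array at 192 h, 8 and 2 without the empty virus array at 192 h, 3 and 2 without the SETD5 array at 96 h, and 3 and 1 without the empty virus array at 96 h.

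Fat cell genes were higher at 192 h in both arms, mostly without being called. Of 18 fat cell markers tested, 16 were higher in both arms, as were 32.4% of all genes, and the median step was 1.05 (0.92 with SETD5 and 1.29 with the empty virus), yet 1 rose (5.56%, against 2.59% of all genes) and none fell. The median SE of their steps was 0.56, against 0.15 over all genes. The 1 that rose was Car3 (carbonic anhydrase 3), an abundant enzyme of fat and muscle, with 1902 with SETD5 and 5751 with the empty virus at 192 h, against 202 and 1236 at 96 h (step 2.67, SE 0.50, adjusted p = 0.0111). The fatty acid transporter Cd36 had 1042 and 4403 at 192 h, against 239.5 and 1163 at 96 h (step 1.98, SE 0.57, adjusted p = 0.0636). Gpd1, the glycerol phosphate dehydrogenase of triglyceride synthesis, had 336 and 2402 at 192 h, against 66.2 and 439 at 96 h (step 2.25, SE 0.73, adjusted p = 0.0943). Resistin (Retn) had 1037.5 and 4694 at 192 h, against 244 and 1802 at 96 h (step 1.70, adjusted p = 0.134), and the insulin-regulated glucose transporter Slc2a4 (GLUT4) 54.9 and 334 against 18.4 and 75.0 (step 1.49, adjusted p = 0.123). Adipoq had a step of 0.94 (adjusted p = 0.331).

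What was called among the fat cell markers depended on which arrays set the spread. In a fit of the 4 arrays alone, with 1 residual degree of freedom, 13 of the 18 rose and 1 fell. In a fit with a term for the late difference between the viruses 4 rose, and without the SETD5 array at 192 h 9 did. Without the empty virus array at 192 h 1 rose and 1 fell, without the one at 96 h 1 rose, and without the SETD5 array at 96 h none was called, so that Car3 was not called there (adjusted p = 0.0645). The lipid droplet and lipolysis list (14 genes) and the fatty acid uptake list (9 genes) had no call, with medians of 0.42 and 0.39. In the list of fatty acid and triglyceride synthesis, 27 genes, none rose and 1 fell, Acsl4, an acyl-CoA synthetase (step -1.02, adjusted p = 0.0101, and 0.0833 without the SETD5 array at 96 h).

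Beside contractile and matrix genes, the largest rises included esterases and secreted proteins. Ces1f, a carboxylesterase, had 130.0 with SETD5 and 974 with the empty virus at 192 h, against 11.5 and 55.8 at 96 h, a rise of 8.55-fold and the largest of the genes named by rule (step 3.10, SE 0.54, adjusted p = 0.00816). Ces1d, the carboxylesterase that hydrolyses stored triglyceride, had 125 and 644.5 at 192 h, against 19.6 and 86.5 at 96 h (step 2.34, SE 0.54, adjusted p = 0.0293). These genes lie in a cluster of close relatives, so reads of a probe set may be shared. Apolipoprotein C1 (Apoc1) had 568 and 4482.5 at 192 h, against 107.5 and 348 at 96 h (step 2.94, SE 0.62, adjusted p = 0.0203). Wfdc21, a secreted protein with a whey acidic domain, had 245 and 1652 at 192 h, against 42.8 and 165 at 96 h (step 2.67, SE 0.48, adjusted p = 0.00911). Chemerin (Rarres2), an adipokine, had 705.5 and 3548 at 192 h, against 220.2 and 680 at 96 h (step 1.98, adjusted p = 0.0268). None of these 5 calls held without the SETD5 array at 96 h (adjusted p = 0.0664, 0.194, 0.137, 0.0731 and 0.161 in the order given). Those of Ces1d, Apoc1 and Rarres2 were lost without the empty virus array at 96 h as well (0.0557, 0.0674 and 0.0943), and those of Ces1d and Rarres2 without the one at 192 h (0.109 and 0.119).

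Steadier rises were seen in 3 other genes named by rule. Fxyd1 (phospholemman), a regulator of the sodium pump, had 282 with SETD5 and 427 with the empty virus at 192 h, against 74.7 and 66.2 at 96 h, a rise of 4.21-fold (step 2.07, SE 0.19, adjusted p = 0.000254). Sycp2, known for the meiotic synaptonemal complex, had 333 and 332 at 192 h, against 93.2 and 48.5 at 96 h (step 2.05, SE 0.19, adjusted p = 0.000244). Acot2, a mitochondrial thioesterase of fatty acid oxidation, had 183 and 220.3 at 192 h, against 74.3 and 65.2 at 96 h (step 1.34, SE 0.16, adjusted p = 0.00112). At 0 h they had been at 107.5 and 78.8, 195 and 197, and 157 and 203, and at 48 h at 24.6 and 20.9, 44.7 and 23.3, and 45.7 and 47.1. Steap4, a metalloreductase, was at 59.2 and 324.5 at 192 h, against 7.3 and 52.0 at 96 h, and its call (step 2.01, adjusted p = 0.0453) was lost in most alternatives, among them those without the empty virus array at 192 h (0.193), the SETD5 array at 96 h (0.269) and the empty virus array at 96 h (0.0709). Caveolin 2 (Cav2) had 2708 and 6045 at 192 h, against 1712 and 2705 at 96 h (step 0.91, adjusted p = 0.0333), which none of those 3 fits called either (0.148, 0.157 and 0.143), and its other probe set was not called (step 0.56, adjusted p = 0.276).

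Interferon response genes rose in part. Of 20 tested 5 rose (25%, against 2.59%) and none fell, with a median step of 0.42. Ifi204 and Ifi207, genes named for their activation by interferon, were not on this list and fell (steps of -2.66 and -3.04). Gbp2, an interferon-induced GTPase, had 131 with SETD5 and 276 with the empty virus at 192 h, against 59.2 and 64.8 at 96 h (step 1.41, SE 0.25, adjusted p = 0.00903). Ifit3, an antiviral protein that binds foreign RNA with its relatives, had 104 and 74.6 at 192 h, against 40.5 and 18.0 at 96 h (step 1.25, SE 0.26, adjusted p = 0.0186), and Ifit2 110.4 and 68.2 against 50.4 and 29.3 (step 0.91, adjusted p = 0.00522). At 0 h the levels were 188 and 175, 157 and 226, and 116.5 and 109 in the same order. None of the 20 was called without the empty virus array at 96 h (0.0833, 0.16 and 0.0673 for Gbp2, Ifit3 and Ifit2), 3 were without the empty virus array at 192 h, and 8 rose and 2 fell without the SETD5 array at 192 h. Ubd, a ubiquitin-like protein induced by interferon, had 178 and 1388 at 192 h, against 61.0 and 133 at 96 h (step 2.28, adjusted p = 0.0348). Ifi27l2a, a small interferon-induced membrane protein, had 126 and 621 at 192 h, against 79.0 and 43.3 at 96 h (step 2.00, adjusted p = 0.0454). Ubd was not called without the SETD5 or the empty virus array at 96 h (0.161 and 0.144), nor was Ifi27l2a (0.0731 and 0.288), which was also lost without the empty virus array at 192 h (0.0935). The class I antigen H2-K1 had 605 and 2016 at 192 h, against 462 and 529 at 96 h, and was not called (step 1.14, adjusted p = 0.125).

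The interferon response element, written as GAAA and GAAA with 2 bases between them and read on either strand, was in the promoter windows of 8 of 19 genes of this list (42.1%), of 9 of 175 genes called higher (5.14%), of 16 of 325 called lower (4.92%) and of 254 of all 7157 (3.55%). Ifit3 is shown because it holds 2 matches, in capitals as they read on the other strand, at -156 and -122.
Ifit3, chr19:34583279-34583578, plus strand: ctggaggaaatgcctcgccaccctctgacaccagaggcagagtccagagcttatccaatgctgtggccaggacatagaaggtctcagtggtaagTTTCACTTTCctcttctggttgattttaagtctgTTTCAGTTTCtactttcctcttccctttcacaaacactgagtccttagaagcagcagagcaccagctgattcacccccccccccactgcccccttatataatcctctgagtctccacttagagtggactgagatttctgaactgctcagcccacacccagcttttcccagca

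Stress and metabolic regulators changed by small steps. Of 31 ATF4 targets and amino acid supply genes 7 rose (22.6%, against 2.59% of all genes) and 2 fell (6.45%, near the 4.8% of all genes), with medians of 0.43 with SETD5 and 0.00 with the empty virus. Chac1, which breaks down glutathione, had 180.5 and 168 at 192 h, against 57.5 and 65.1 at 96 h (step 1.30, SE 0.15, adjusted p = 0.000983), still below 345 and 324 at 0 h. Trib3, a pseudokinase that binds AKT, and the factor Atf5 had steps of 1.13 and 0.99 (adjusted p = 0.0203 and 0.0223). Both were lost without the SETD5 array at 96 h (0.0757 and 0.0894) or the empty virus array at 96 h (0.144 and 0.142), and Atf5 also without the SETD5 array at 192 h (0.0507). Of the 31 genes 4 rose and 4 fell without the SETD5 array at 192 h, 2 and 1 without the one at 96 h, and 1 and 0 without the empty virus array at 96 h. Herpud1, of endoplasmic reticulum protein disposal, had a step of 1.10 (adjusted p = 0.0108, and 0.0814 and 0.0557 without the SETD5 and the empty virus array at 96 h).

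Of 29 antioxidant and glutathione genes 4 rose (13.8%, against 2.59% of all genes) and 2 fell (6.9%, near the 4.8% of all genes). The glutathione transferase Gstm1 had 335 with SETD5 and 585 with the empty virus at 192 h, against 153 and 135 at 96 h (step 1.52, SE 0.26, adjusted p = 0.0076). Heme oxygenase 1 (Hmox1) and Gstt1 had steps of 0.97 and 1.00 (adjusted p = 0.0136 and 0.00358). Gstm1 and Hmox1 were not called without the empty virus array at 96 h (0.0673 and 0.131), where 1 of the 29 was. Of 13 clock genes 4 rose (30.8%, against 2.59%) and 2 fell (15.4%, against 4.8%). Nr1d2 (REV-ERBβ), a repressor of the clock, had 418 and 566 at 192 h, against 180.3 and 245 at 96 h (step 1.15, SE 0.13, adjusted p = 0.000625), and Dbp, an output factor of the clock, a step of 1.13 (adjusted p = 0.00418). Per1 and Per2, which glucocorticoids and cyclic AMP also induce, fell (steps of -0.63 and -0.83, adjusted p = 0.021 and 0.0117). Without the empty virus array at 96 h Dbp (0.0557), Per1 (0.15) and Per2 (0.115) were not called, and Per1 was not without the SETD5 array at 96 h either (0.0731). The clock genes of 1 array show 1 time of day. By the labels 96 and 192 h are both whole days after 0 h, but the time of day of harvest is not given.

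Among genes of energy metabolism few were called. Idh2, the mitochondrial isocitrate dehydrogenase, had 1017 with SETD5 and 899.5 with the empty virus at 192 h, against 2017 and 1752.5 at 96 h, a fall of 1.95-fold that held in every alternative (step -0.96, SE 0.12, adjusted p = 0.00123), while its other probe set was not called (step -0.76, adjusted p = 0.0515). Of 28 genes of glycolysis and its branches none rose and 2 fell (7.14%, near the 4.8% of all genes), Pkm and Pgk1 (steps of -0.89 and -0.60, adjusted p = 0.0191 and 0.0314). Both were lost without the empty virus array at 192 h (0.0826 and 0.0875) or at 96 h (0.157 and 0.243). Of 67 genes of oxidative phosphorylation, 73 of the mitochondrial ribosome, 24 of cholesterol synthesis and 22 of branched-chain amino acid breakdown none was called either way.

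Several of these lists had medians that lay apart between the arms. Genes of cholesterol synthesis and uptake had a median step of -0.04 with SETD5 and 0.89 with the empty virus, and 20 of the 24 had a lower step with SETD5. Branched-chain amino acid breakdown had 0.02 and 0.83 (20 of 22 lower with SETD5), fatty acid oxidation and peroxisomes -0.05 and 0.51 (30 of 32), oxidative phosphorylation 0.01 and 0.35 (61 of 67), and preadipocyte genes 0.45 and -0.24 (7 of 27). Over all genes the step was lower with SETD5 in 43.5%. Tm7sf2, a sterol reductase, had 71.6 with SETD5 and 539.5 with the empty virus at 192 h, against 69.9 and 90.6 at 96 h. Fdft1 (squalene synthase) had 393 and 2080.5 at 192 h, against 374 and 601 at 96 h, and the carboxylase gene Mccc1 of leucine breakdown 590 and 2219 against 374 and 695.

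The difference between the arms was tested gene by gene, as the step with SETD5 minus the step with the empty virus, and no gene was called in either direction (limma, 0% of 8682), while 462 genes (5.32%) had an unadjusted p under 0.05. Tm7sf2 had a difference of -2.35 (adjusted p = 0.87), Fdft1 of -1.70, Ifi27l2a of -2.85, Ubd of -1.90, Klf15 of -1.57 and Pparg of -0.95, and Ang3 and Cxcl13 had differences of 2.64 and 1.83, with adjusted p of 0.87 to 0.891. The SE of these differences lay between 0.33 and 1.30. A difference that was not called is not shown to be absent at 1 array per virus and hour. Fits that left out 1 array at 192 h cannot separate the arms for these lists. They set the array left at 192 h, corrected by the mean virus difference of the other hours, against both arrays at 96 h. The spread behind their calls also lacks the virus difference at 192 h.

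**Figure D5:**
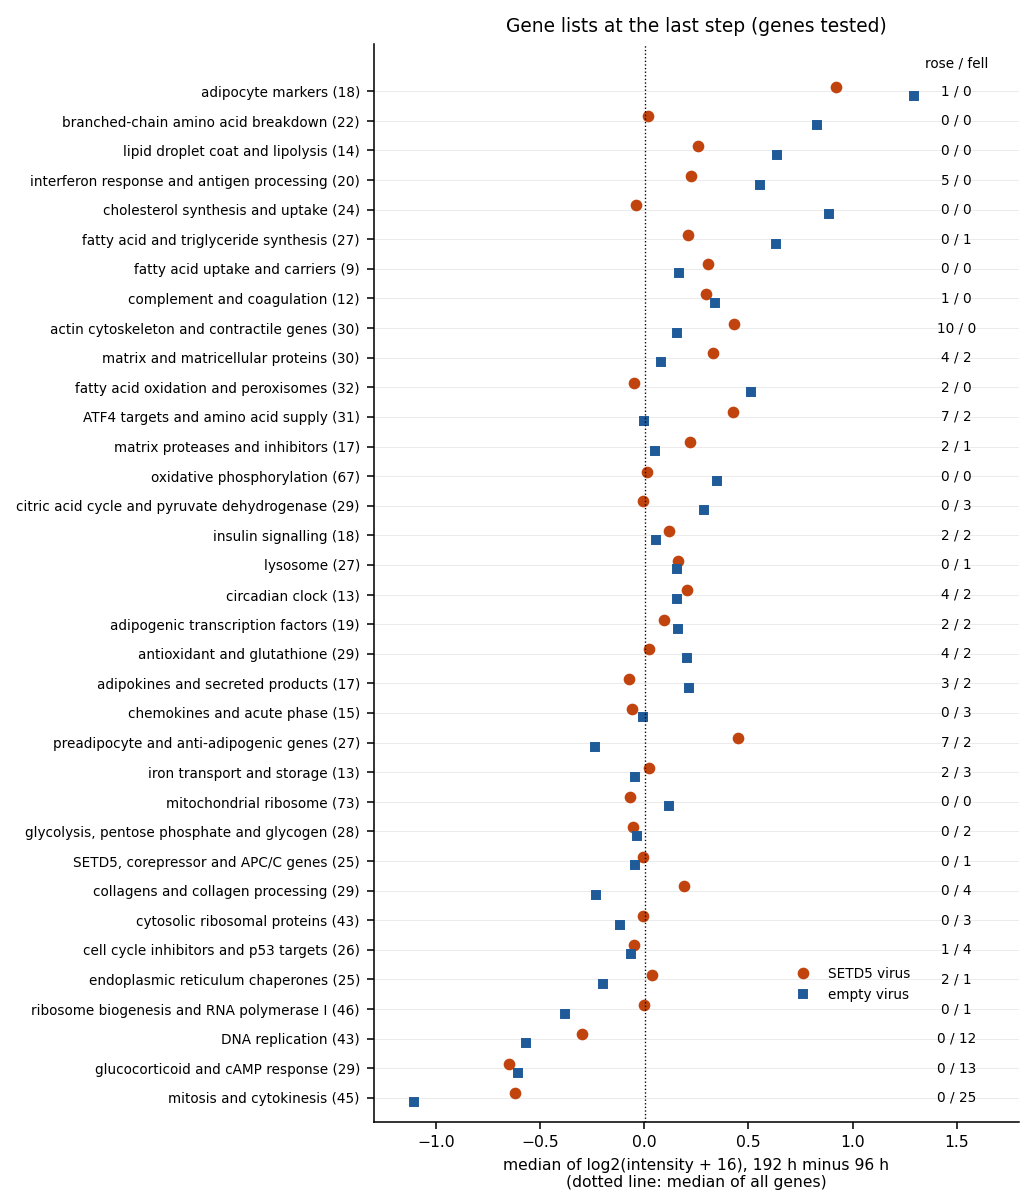
Median step of 35 gene lists in each arm, as log2(intensity + 16) at 192 h minus 96 h, with the SETD5 virus (orange circles) above the empty virus (blue squares), the number of genes tested in brackets, and the number of members that rose and fell at the right. The lists of mitosis, DNA replication and glucocorticoid response lie below 0 in both arms, and those of cholesterol synthesis and branched-chain amino acid breakdown lie near 0 with SETD5 and at 0.89 and 0.83 with the empty virus.

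Some genes that the filter on low values left out were above it at 192 h. Of the 9511 genes below the filter 21 were at 50 or more on both arrays at 192 h. They were picked by these values and are described without a test. Several barely passed 50, such as Hexim2, with 56.4 with SETD5 and 50.3 with the empty virus, against 47.7 at its highest earlier hour. Fam174c had 50.3 and 50.1, against 48.7. The genes described next had larger rises. Cox8b, a subunit of cytochrome oxidase typical of brown fat and muscle, had 76.0 with SETD5 and 977 with the empty virus at 192 h, against 5.6 and 17.8 at 96 h. Abcd2, a peroxisomal fatty acid transporter, had 63.2 and 653 at 192 h, against 16.6 and 23.0 at 96 h. Selenbp1, a selenium-binding protein, had 50.9 and 341 at 192 h, against 21.3 and 46.3 at 96 h. Integrin α1 (Itga1) had 102 and 86.2 at 192 h, against 39.5 and 20.4 at 96 h. Ucp1, the uncoupling protein of brown fat, stayed at 2.2 or less on all 4 arrays.

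A further 28 of these 9511 genes were at 100 or more on the empty virus array at 192 h and under 50 on the other 13. For the SETD5 array at 192 h 1 gene was. The lipase and acyltransferase gene Pnpla3 had 37.6 with SETD5 and 527 with the empty virus at 192 h, against 16.2 and 31.4 at 96 h. Pck1, the carboxykinase of glycerol synthesis in fat, had 20.5 and 284 at 192 h, against 2.1 and 10.3 at 96 h. Klb (β-klotho), the coreceptor of FGF21, had 21.4 and 222 at 192 h, against 7.5 and 48.3 at 96 h. Sucnr1, the succinate receptor, had 16.3 and 136 at 192 h, against 0.6 and 9.6 at 96 h. These genes were picked after their values were seen, and each rests on 1 array.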

How the data were processed

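RNA was hybridised to Affymetrix Mouse Genome 430 2.0 arrays, and the authors deposited linear intensity values from GeneChip Analysis Suite 5.0, scaled so that the trimmed mean (2% at each end) of every array is 100. No counts exist, so the number of arrays limits the precision. Of 18193 genes with a probe set of a single symbol, 8682 were tested. limma 3.58.1 (R 4.3.3) fitted virus and hour to log2(intensity + 16) on all 14 arrays (6 residual degrees of freedom), which pairs the arrays of an hour and a virus. The difference between the arms had a term of its own (5 residual degrees of freedom). Promoters came from RefSeq (GRCm38.p6). The fit was tested on simulated data, in which noise was equal for all genes and the virus difference constant over hours for most. The genes measured here differed in spread, with a median SE of 0.56 for fat cell markers and 0.15 over all genes. The members, gene lists and tests were chosen with earlier results of these data known. Genes named are the 15 largest called rises and falls with a mean of 100 or more at either hour, up to 4 members of each list by size of step, and fixed marker genes; others were picked after their values were seen. Alternatives changed the offset, filter, scaling, prior, virus block, hours and single arrays.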

Additional observations from a re-analysis of the deposited data

How the results depend on the processing

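With 1 array per virus and hour, no alternative adds a replicate culture, and the spread behind every p comes largely from other hours. Scaling each array to a common median gave 141 genes higher and 329 lower, and fitting 48, 96 and 192 h alone gave 107 higher and 188 lower. Without the replicate block (the pairing of the arrays of an hour and a virus) 118 were higher and 274 lower, all of them among the 225 and 417. Several named genes lost their call in that limma fit. Among them were Sfrp2, Gstt1, Car3, Wfdc21 and Tpm1 (adjusted p = 0.0526, 0.0956, 0.0719, 0.0948 and 0.0866). The 4 arrays alone gave 455 higher and 551 lower. Leaving out 1 of the 4 arrays gave 53 to 767 higher and 129 to 1014 lower. Without the empty virus array at 96 h, 47 of the 53 and 124 of the 129 were shared with the full fit, and without the SETD5 array at 192 h 179 of 767 and 395 of 1014 were. Without the empty virus array at 192 h the steps of Pparg (-0.31), Cebpa (-0.16), Tm7sf2 (-0.10), Fdft1 (-0.26) and Insig1 (-0.13) turned negative, and without the SETD5 array at 96 h that of Cebpa did (-0.08). Without the SETD5 array at 192 h they were highest, at 1.44, 1.26, 2.51, 2.09 and 2.11 in the same order. In such a fit the array left at 1 hour is corrected by the mean virus difference of the other hours. It is then set against both arrays of the other hour, so these values are not the steps of 1 arm. On the SETD5 arrays themselves these genes were all higher at 192 h than at 96 h. Pparg had 274 against 256 there, and Insig1 253 against 177. Why the arms differed was not tested. Of 83 genes named that were called, 41 were called in every alternative, and 1, 10, 21 and 34 were lost without the SETD5 array at 192 h, the empty virus array at 192 h, the SETD5 array at 96 h and the empty virus array at 96 h. No alternative called a difference between the arms, and leaving out an array leaves no such difference to fit. Dim genes and bright ones alike were read from 1 array per virus and hour.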
